A study of Homo sapiens with 2 samples.

Results

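The miR-17-92 cluster is a group of 6 miRNA hairpins cut from one primary transcript. The values described here are those of 10 mature miRNAs of the cluster, chosen by name among the 2549 human miRNAs on the array: hsa-miR-17-5p, hsa-miR-17-3p, hsa-miR-18a-5p, hsa-miR-18a-3p, hsa-miR-19a-3p, hsa-miR-19b-3p, hsa-miR-20a-5p, hsa-miR-20a-3p, hsa-miR-92a-3p and hsa-miR-92a-1-5p. The prefix hsa, for human, is left out below. All 10 were found under the same names in both scanner outputs. The rule goes by name and not by a measured value, but earlier results of these data were known when the members were chosen. The opposite arms of the miR-19 hairpins, miR-19a-5p and miR-19b-1-5p, are given beside them so that each of the 6 hairpins has both arms.

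The RNA came from exosomes, small vesicles released by cells, of FaDu cells, an established line of human hypopharyngeal squamous cell carcinoma. The array labelled oe-HOTTIP holds exosome RNA of cells made to overexpress HOTTIP, a long noncoding RNA from the HOXA locus, and the array labelled oe-NC that of cells given the control plasmid. The treatment labels name a plasmid lentivirus for both groups, while the methods describe pcDNA3.1 plasmids carried into the cells with Lipofectamine. There was 1 array per group and no time after transfection is given in the labels, so no difference between the groups could be tested and every error below is a spread between spots, of one array for an intensity and of both arrays combined for a difference.

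The direction between the groups is not settled. The sample titles and treatment labels put each array in the group used here, but the free-text descriptions name the opposite groups. The normalized table of the study also runs the other way. Across the 258 miRNAs above its floor in both columns, its differences and those of the scanner values had a Spearman rho of -0.97, and 5 of the 5 members above the floor had the opposite sign. HOTTIP itself has no probe on a miRNA array. "Higher" and "lower" below therefore refer to the labelled arrays, and every direction between arrays turns round if the titles are wrong, whereas comparisons within an array and sizes of differences do not change.

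Each hairpin yields a duplex of 2 strands, one from its 5p and one from its 3p arm. One strand, the guide, is usually kept in an Argonaute protein and represses messenger RNAs that pair with its seed, while the passenger strand is usually degraded. The cluster, also called oncomir-1, is activated by MYC, is amplified in B cell lymphomas, and promotes proliferation and survival by repressing genes such as BCL2L11 and CDKN1A. Its guide strands are miR-17-5p, miR-18a-5p, miR-19a-3p, miR-20a-5p, miR-19b-3p and miR-92a-3p.

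The 6 guide strands fall into 4 seed groups, and their sequences are shown because these groups and the single-base differences between members bear on which miRNAs the probes can tell apart. They are the mature sequences of RefSeq, which held all 10 of the 10 members. Capitals mark the seed, bases 2 to 8 counted from the 5′ end. miR-25-3p is added as a miRNA of another cluster with the seed of miR-92a-3p, and miR-20a-3p as an example of a passenger strand.
miR-17-5p: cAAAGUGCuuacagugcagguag
miR-20a-5p: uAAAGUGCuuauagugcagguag
miR-18a-5p: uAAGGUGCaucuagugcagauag
miR-19a-3p: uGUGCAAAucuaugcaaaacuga
miR-19b-3p: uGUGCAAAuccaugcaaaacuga
miR-92a-3p: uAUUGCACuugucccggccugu
miR-25-3p: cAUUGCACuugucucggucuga
miR-20a-3p: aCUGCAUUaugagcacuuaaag

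miR-17-5p and miR-20a-5p shared 21 of 23 bases and differed as C1U and C12U, with the base of miR-17-5p first and positions counted from the 5′ end. miR-19a-3p and miR-19b-3p shared 22 of 23 bases and differed as U11C. Probes for such near-identical miRNAs can share label, so their values are not fully independent. miR-92a-3p and miR-25-3p shared 18 of 22 bases, the seed among them.

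In the GRCh38.p14 annotation of RefSeq the 6 hairpins lie on the plus strand inside the noncoding host gene MIR17HG, at chr13:91347687-91354577, within a stretch of 787 bases. From 5′ to 3′ the guide strands are miR-17-5p (chr13:91350618-91350640), miR-18a-5p (chr13:91350756-91350778), miR-19a-3p (chr13:91350939-91350961), miR-20a-5p (chr13:91351072-91351094), miR-19b-3p (chr13:91351245-91351267) and miR-92a-3p (chr13:91351361-91351382). miR-19b-3p and miR-92a-3p have a second locus each, on the minus strand of chromosome X (chrX:134169683-134169705 and chrX:134169544-134169565). Both loci give the same mature sequence, so the array cannot say which of them a signal came from.

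The scanner flagged 328 miRNAs as detected on the oe-NC array and 390 on the oe-HOTTIP array, 261 of them on both. Spots designed to bind nothing averaged 3.87 ± 2.37 (SD over 976 spots) on the oe-NC array and 3.45 ± 2.21 (SD over 975 spots) on the oe-HOTTIP array. Of 4 epithelial and squamous marker miRNAs, 3 were detected on both arrays and miR-203a-3p on neither, with summed intensities of 503 and 608. Of 5 blood cell markers, 3 were detected on both arrays and miR-142-3p and miR-142-5p on neither, with summed intensities of 2266 and 2605 that were mostly miR-451a, a red cell miRNA. The liver marker miR-122-5p was detected on both arrays, the muscle marker miR-133a-3p on the oe-NC array alone, and miR-124-3p and miR-1-3p, of neuron and muscle, on neither. The part of RNA from other cells or from culture medium in the values below was not tested.

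On the scale of the scanner, before any scaling, all 6 guide strands were detected on both arrays and 5 of the 6 were brighter on the oe-HOTTIP array. That array was brighter in general. The median unscaled log2 difference (oe-HOTTIP minus oe-NC) of the 261 miRNAs detected on both arrays was 0.67. The count is thus not a result about the cluster. Intensity here is the background-subtracted brightness of a miRNA's spots, averaged over its probes. The SD given with the intensity of a miRNA is pooled within probes. Differences in brightness between the probes of a miRNA are not part of it. Different probes bind with different strength, so intensities of different miRNAs are not ratios of molecules.

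miR-17-5p, which represses CDKN1A among other targets, read 46.2 ± 11.2 on the oe-NC array and 90.9 ± 19.0 on the oe-HOTTIP array (SD, 20 spots each). miR-20a-5p, which shares its seed and represses E2F1, read 138 ± 24.9 and 235 ± 37.7 (SD, 20 spots each). Both were well above the negative control spots on both arrays.

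miR-19a-3p read 9.33 ± 4.12 on the oe-NC array and 22.4 ± 3.95 on the oe-HOTTIP array (SD, 19 spots each). miR-19b-3p read 78.8 ± 29.0 and 157 ± 26.7 (SD, 20 spots each). These strands of the miR-19 seed group, known as the main oncogenic component of the cluster, were brighter on the oe-HOTTIP array before scaling, as that array was in general.

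miR-18a-5p, which represses the estrogen receptor gene ESR1 among others, read 3.58 ± 3.08 on the oe-NC array and 6.41 ± 2.88 on the oe-HOTTIP array (SD, 20 spots each). It was flagged as detected on both, but on the oe-NC array its mean of 3.58 lay below the 3.87 of the negative controls, with 1 of 20 spots well above background.

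miR-92a-3p, which represses ITGA5 in endothelial cells, went the other way: it read 83.5 ± 7.03 on the oe-NC array (SD, 17 spots) and 45.8 ± 7.65 on the oe-HOTTIP array (SD, 20 spots). It was the single detected member that was dimmer on the oe-HOTTIP array before scaling. The scanner software marked 3 of its 20 oe-NC spots as outliers, with intensities from 90.4 to 165.5, and these were left out.

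The 4 passenger strands among the members were not detected on either array. miR-17-3p read 0.126 and 0.374 on the oe-NC and oe-HOTTIP arrays, miR-18a-3p -0.14 and -0.89, miR-20a-3p 0.207 and 0.987, and miR-92a-1-5p -2.12 and -1.36. The other passenger strands were not detected either, with miR-19a-5p at 1.46 and 0.562 and miR-19b-1-5p at -1.79 and -1.88. All 12 values lay below the mean of the negative control spots of their array.

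**Figure D1:**
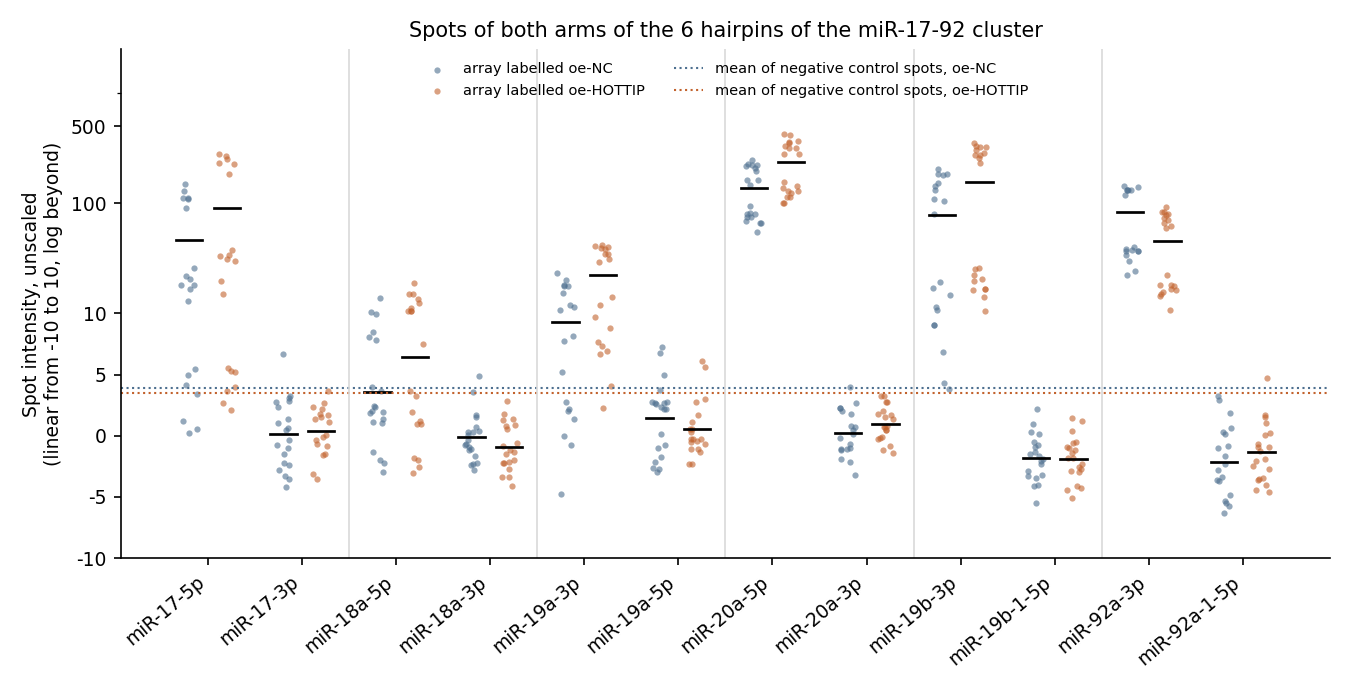
Unscaled intensity of every spot not marked as an outlier, for both arms of the 6 hairpins in genomic order with the guide strand first (vertical axis linear near 0 and logarithmic at higher intensities, as labelled), on the arrays labelled oe-NC (blue) and oe-HOTTIP (orange). Black lines are the means over probes and dotted lines the mean of the negative control spots (3.87 and 3.45); every passenger strand mean lies below these lines, and miR-92a-3p is the one guide strand with a lower mean on the oe-HOTTIP array.

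The next comparison asked whether the balance of the 2 strands of a hairpin differed between the arrays. Because no passenger strand was detected, the ratio of guide to passenger intensity within an array could only be bounded from below, and a difference of that ratio between the arrays has no value for any of the 6 hairpins. As a working limit for a passenger strand the lowest mean among probes with most of their spots well above background was used, 10.4 on the oe-NC array and 11.3 on the oe-HOTTIP array. It is not a strict upper limit. The dimmer miR-19b-3p probe read 10.6 on the oe-NC array with only 5 of 10 spots well above background. The brighter miR-18a-5p probe read 12.5 on the oe-HOTTIP array, also with 5 of 10. The bounds hold only for a passenger strand under the limit. A bound compares probe brightness, not molecules.

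The highest bound was that of the miR-20a hairpin, whose guide strand was at least 13.2-fold brighter than its passenger strand on the oe-NC array and at least 20.8-fold on the oe-HOTTIP array. For the miR-17 hairpin the bounds were 4.44-fold and 8.06-fold, and for the miR-19b-1 hairpin 7.57-fold and 13.9-fold. For the miR-92a-1 hairpin the bounds were 8.03-fold on the oe-NC array and 4.05-fold on the oe-HOTTIP array. The miR-19a hairpin had a bound of 1.98-fold on the oe-HOTTIP array and none on the oe-NC array, and the miR-18a hairpin had none on either, since its guide strand was itself under the limit. These bounds move with the guide strand alone, and for miR-19b-3p and miR-92a-3p the second locus may add to the guide strand, so they say nothing about a shift between strands.

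The arm detected was that of the known guide strand for 6 of the 6 hairpins on both arrays, the 5p arm in 3 (miR-17, miR-18a and miR-20a) and the 3p arm in the other 3. Of the 852 hairpins with both arms on the array, 721 paired through RefSeq and 131 by the names of the array, 167 had an arm detected on each array. Of these, 137 (82.0%) showed the same single arm on both, the 5p arm in 84 and the 3p arm in 53, and 7 showed both arms on both. The cluster was thus like most detected hairpins in this respect.

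The passenger strands with the opposite arms of the miR-19 hairpins were read by 20 probes, and 0 of them had most of their spots well above background on either array. Of their 120 spots per array, 0 on the oe-NC array and 1 on the oe-HOTTIP array were flagged as well above background. The exception was a miR-17-3p spot at 58.2, which the scanner software marked as an outlier.

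To compare the arrays, each was divided by the 90th percentile of its intensities over the 261 miRNAs detected on both, and a difference is the log2 value on the oe-HOTTIP array minus that on the oe-NC array. This scaling lowered every log2 difference by 0.65. The spread given with a difference combines the SDs over spots of both arrays, which are pooled within probes. It describes single spots, and the standard error of a mean over spots is smaller.

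The guide strands differed from each other in this comparison. miR-92a-3p was lower on the oe-HOTTIP array, with a log2 difference of -1.52 ± 0.27 (spread over spots), or 2.87-fold. The differences of the other 5 were 0.33 ± 0.46 for miR-17-5p, 0.19 ± 1.40 for miR-18a-5p, 0.61 ± 0.69 for miR-19a-3p, 0.12 ± 0.35 for miR-20a-5p and 0.35 ± 0.59 for miR-19b-3p. Each of these 5 lay within its own spread of 0, and all 5 were under the 2-fold threshold of the study's methods. Their standard errors over spots were 0.10, 0.31, 0.16, 0.078 and 0.13 in the same order. A difference within its spread is thus not shown to be absent.

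Of the 6 detected members, 1 was at least 2-fold lower, against a background of 21.1% of the 261 miRNAs, and 0 were at least 2-fold higher, against 18.0%. The count for the cluster is thus near the background share and is not in itself a result about the cluster. Differences as low as that of miR-92a-3p or lower were found in 36 of the 261 miRNAs (13.8%), miR-92a-3p included. The median difference was 0.26 over the 6 members and 0.33 over the 5 without miR-92a-3p, beside 0.024 over all 261, whose quartiles were -0.66 and 0.73. The range of the 5, from 0.12 to 0.61, also held 36 of the 261 miRNAs (13.8%).

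The sign of the small differences depended on the processing. Among 14 alternatives, the normalized table with its columns as named set aside, the difference of miR-19b-3p stayed above 0 in 14 of 14. The 14 include that table with its columns exchanged. The exchange was made because the table ran the other way, so its signs are not a separate check. Those of miR-17-5p, miR-18a-5p, miR-19a-3p and miR-20a-5p fell below 0 in 1, 3, 1 and 3 alternatives. The difference of miR-92a-3p was below 0 in 14 of 14 and at least 2-fold in 13, the exception being the arrays without scaling, where it was -0.87 while the median of all 261 miRNAs was 0.67. In the table miR-92a-3p was at 1.77 with the columns as named and at -1.77 with them exchanged.

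**Figure D2:**
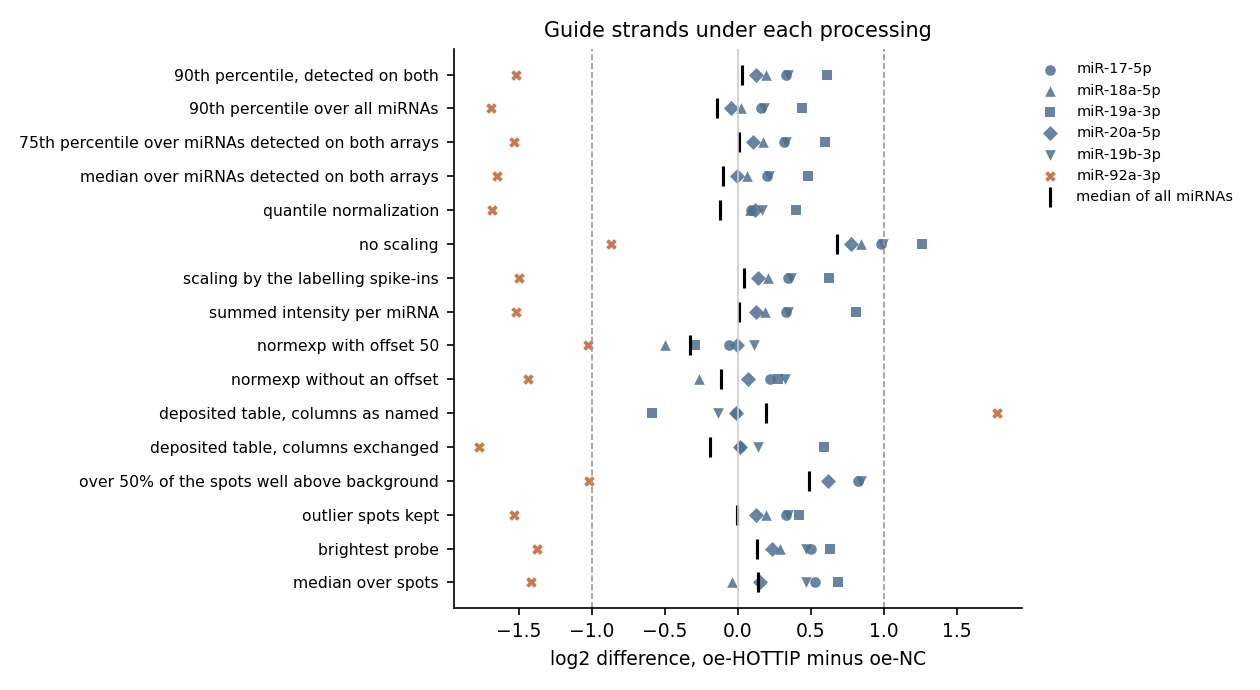
Log2 difference (oe-HOTTIP minus oe-NC) of the guide strands under the processing reported (top row) and each of the 15 alternatives, with miR-92a-3p in orange, the other guide strands in blue and the median of all miRNAs as a black tick. miR-92a-3p lies from -1.77 to -0.87 and left of the other guide strands in every row but that of the normalized table with its columns as named, where it lies at 1.77.

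**Figure D3:**
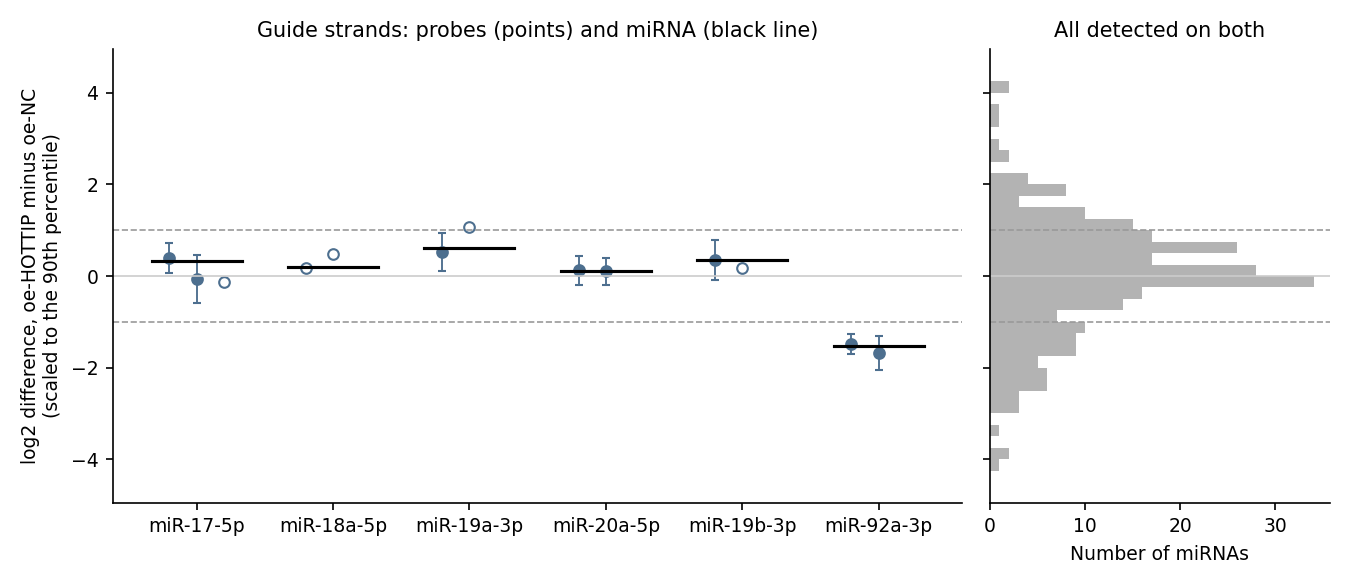
Left, scaled log2 difference (oe-HOTTIP minus oe-NC) of each guide strand probe, ordered from bright to dim, with the spread over spots as bars for probes well above background on both arrays (filled points) and no bars for dimmer probes (open points); black lines are the values of the miRNAs. Right, the same difference for the 261 miRNAs detected on both arrays, with dashed lines at 2-fold; both miR-92a-3p probes (-1.48 and -1.68) lie below the lower line, and the filled points of the other guide strands lie between -0.064 and 0.52.

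A ratio of miRNAs within an array does not depend on the factor by which an array is divided. Relative to the guide strands other than the dim miR-18a-5p, miR-92a-3p was lower on the oe-HOTTIP array than on the oe-NC array. The log2 ratio of miR-92a-3p to miR-17-5p fell by 1.85 ± 0.54, or 3.60-fold. The ratio to miR-19a-3p fell by 2.13 ± 0.74, or 4.37-fold. The ratio to miR-19b-3p fell by 1.86 ± 0.64, or 3.64-fold.

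The ratio to miR-20a-5p fell by 1.64 ± 0.44, or 3.11-fold. No ratio to miR-18a-5p is given, since neither of its probes was well above background on both arrays. The 4 falls were larger than their spread over spots. They share the same miR-92a-3p value and so are not 4 separate observations. Differences as low as that of miR-92a-3p or lower were found in 13.8% of the 261 miRNAs detected on both arrays. How often other miRNAs fell by more than their spread against these guide strands is not given here. Among miR-17-5p, miR-19a-3p, miR-19b-3p and miR-20a-5p the ratios changed by 0.018 to 0.49 on the log2 scale, and 0 of the 6 pairs changed by more than the spread. The largest change, 0.49 for miR-19a-3p to miR-20a-5p, had a standard error over spots of 0.18. The differences of these 4 strands were all above 0 and within their own spread, so the count of pairs was fixed in advance. Probes of the near-identical strands can also share label. The size of the miR-92a-3p gap depended on an offset added in the background correction. The gap between miR-92a-3p and the median of the other guide strands was -1.85 as processed here. It was -1.65 with normexp correction and no offset, and -0.97 with normexp correction and an offset of 50. With 1 array per group, the spread between exosome preparations is not known, so it is not known whether any of these changes exceeds it.

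The probes of a miRNA gave a second look at the same hybridization. miR-92a-3p has a pair of probes, and both showed the difference, by -1.48 ± 0.22 for the brighter and -1.68 ± 0.37 for the dimmer. Spots of the brighter probe ran from 117.6 through a median of 132.9 to 142.6 on the oe-NC array and from 59.7 through 76.0 to 92.9 on the oe-HOTTIP array. Those of the dimmer probe ran from 22.4 through 36.9 to 40.1 and from 10.8 through 16.4 to 22.3.

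With the outlier spots left out, the spots of the arrays did not overlap for either miR-92a-3p probe, before scaling or after it. All 3 outlier spots belong to the brighter probe, and with them kept its lowest oe-NC spot, 90.4, lay below its highest oe-HOTTIP spot, 92.9, before scaling, while after scaling the spots still did not overlap (32.3% against 21.1% of the 90th percentile). Without the outlier spots, the brighter probe had 42.0% to 51.0% of the 90th percentile on the oe-NC array and 13.6% to 21.1% on the oe-HOTTIP array. Of the 11 other guide strand probes, 5 did not overlap before scaling and were higher on the oe-HOTTIP array, and after scaling the spots of all 11 overlapped. The share of all probes on the arrays without overlap is not given here. A lack of overlap is thus not shown to be particular to miR-92a-3p. Keeping the 3 outlier spots gave a difference of -1.53 for miR-92a-3p.

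Of the 13 guide strand probes, 8 were well above background on both arrays, 2 of them for miR-92a-3p and 6 for the other guide strands. The 6 differed by -0.064 to 0.52. The probes of miR-17-5p differed among themselves: the brightest went from 116.5 to 240.0, a scaled difference of 0.39 ± 0.32, the middle one from 19.1 to 28.7, a difference of -0.064 ± 0.52, and the dimmest stayed near the negative control spots, at 2.85 and 4.07. The value of miR-17-5p thus rests mostly on its brightest probe.

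Probes of miR-20a-5p were close to each other, with differences of 0.13 ± 0.32 and 0.10 ± 0.30. For the miR-19 pair, the brighter probes differed by 0.52 ± 0.42 for miR-19a-3p and 0.36 ± 0.44 for miR-19b-3p, and the dimmer probe of each was not well above background on both arrays. Neither probe of miR-18a-5p was.

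The seed relatives of the members, encoded in other clusters, were examined next. Paralog clusters on chromosomes 7 and X carry miRNAs with the same seeds, which repress overlapping sets of targets. Of the 16 mature miRNAs listed for these clusters, 15 were on the array, and miR-106a-5p was not analysed here. Of the 15, 4 were detected on both arrays, 2 on 1 array and 9 on neither. The 2 were the arms of the miR-18b hairpin, miR-18b-3p on the oe-NC array alone and miR-18b-5p on the oe-HOTTIP array alone. Both were dim. miR-18b-3p read 7.94 on the oe-NC array and 0.77 on the oe-HOTTIP array, and miR-18b-5p 2.49 and 4.11. The median difference of the 4 was -0.070, and 0 of the 4 were at least 2-fold lower or higher.

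In the seed group of miR-92a-3p, miR-25-3p was the only one of 5 relatives with a RefSeq sequence that was detected on both arrays. It read 84.2 ± 15.0 on the oe-NC array (SD, 19 spots) and 117.8 ± 17.9 on the oe-HOTTIP array (SD, 19 spots), a scaled difference of -0.17 ± 0.34. On each array 12 of its 20 spots were well above background. Its median spots were 13.9 and 13.4, so its value rests mostly on its brighter spots. Side by side, the seed partners thus had differences of -0.17 and -1.52, and with 1 array per group the gap between them was not tested. The other 4 relatives, miR-32-5p, miR-92b-3p, miR-363-3p and miR-367-3p, were not detected on either array. miR-363-3p read 1.40 on the oe-NC array.

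The arms that only the chromosome X copies yield, miR-19b-2-5p and miR-92a-2-5p, were not detected on either array. They read 2.24 and 0.742 on the oe-NC array. They are passenger strands, and those of the chromosome 13 hairpins were not detected either, so these readings do not tell the 2 loci apart.

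In the seed group of miR-17-5p and miR-20a-5p, 3 of 5 relatives were detected on both arrays. miR-106b-5p read 132.6 ± 20.5 on the oe-NC array (SD, 19 spots) and 185.7 ± 24.2 on the oe-HOTTIP array (SD, 20 spots), a difference of -0.16 ± 0.29. miR-20b-5p and miR-93-5p were dim, with differences of 0.18 ± 1.01 and 0.024 ± 0.98. miR-519d-3p and miR-526b-3p were not detected on either array.

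In the seed group of miR-18a-5p, miR-18b-5p was detected on the oe-HOTTIP array alone and miR-4735-3p on neither. miR-18b-5p read 2.49 on the oe-NC array, below the negative control spots. No further miRNA on the array with a RefSeq sequence had the seed of the miR-19 pair.

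**Figure D4:**
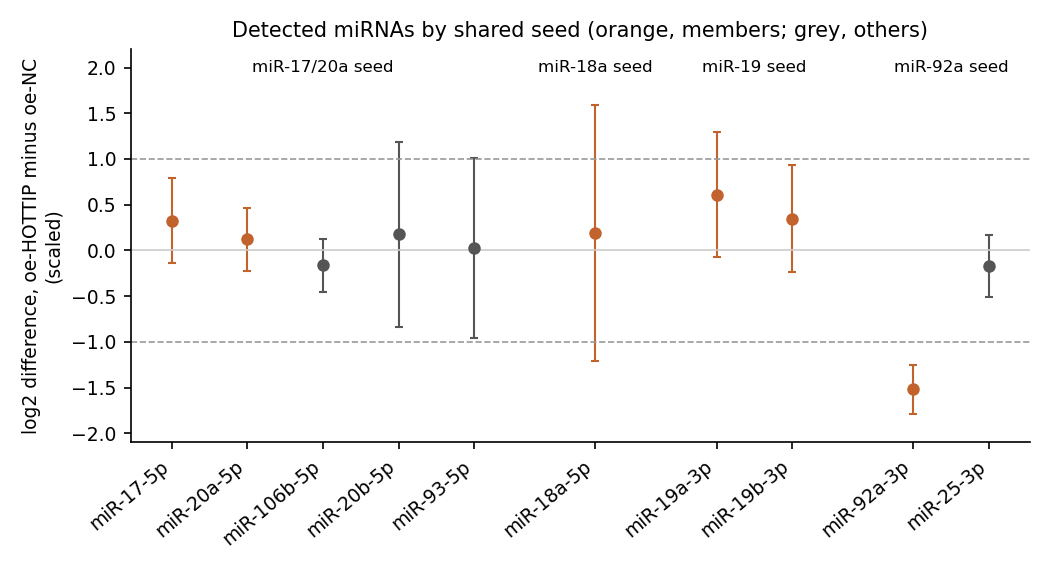
Scaled log2 difference (oe-HOTTIP minus oe-NC) of the 10 miRNAs detected on both arrays that carry one of the 4 seeds of the cluster, grouped by seed, with members in orange and miRNAs of other clusters in grey. Bars are the spread over spots and dashed lines mark 2-fold; miR-92a-3p (-1.52) is the one point beyond a dashed line, and miR-25-3p with the same seed lies at -0.17.

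miR-92a-3p also has the highest GC content of the 6 guide strands. Its mature sequence holds 54.5% G and C, against 34.8% to 47.8% in the others. GC content was examined because it sets how strongly a short RNA binds its probe. Of the 261 miRNAs detected on both arrays, 218 (83.5%) could be matched to a RefSeq sequence.

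Among the 140 miRNAs with at least the GC content of miR-92a-3p, itself included, 27.9% were at least 2-fold lower and 22.9% at least 2-fold higher, with quartiles of -1.11 and 0.92. Among the 78 with less, 6.41% were lower and 10.3% higher, with quartiles of -0.24 and 0.42. The medians were 0.023 and 0.0064. Differences were thus more widely spread in both directions among GC-rich miRNAs, while across the 218 miRNAs the Spearman rho between GC content and difference was 0.015, given as a description since all points share the same arrays. The part of GC content in the miR-92a-3p value was not tested.

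**Figure D5:**
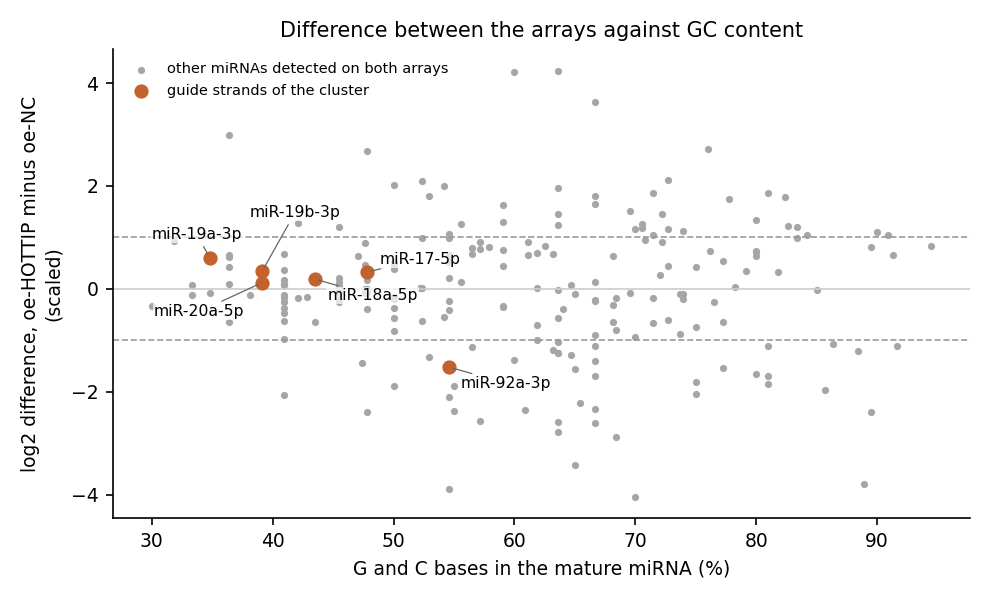
Scaled log2 difference (oe-HOTTIP minus oe-NC) against the GC content of the mature sequence for the 218 miRNAs with a RefSeq sequence (grey) and the 6 guide strands (orange), with dashed lines at 2-fold. The 5 guide strands at 34.8% to 47.8% GC lie between 0.12 and 0.61, and miR-92a-3p at 54.5% lies at -1.52. Wide differences also occur below 54.5%, as for miR-5188 (-2.39) and miR-6867-5p (2.68), both at 47.8%.

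miR-92a-3p is also abundant in red blood cells, so blood cell miRNAs were set beside it. Among the markers, miR-451a, of red cells, had a scaled difference of -0.46 ± 0.59 with 10 of its 20 spots on the oe-NC array marked as outliers, and miR-144-3p, encoded beside it, one of -0.33 ± 1.01. miR-223-3p, of myeloid cells, had a difference of 0.69 ± 1.13. A further pair of miRNAs abundant in red cells was added after values were seen. miR-486-5p read 12.6 ± 2.60 on the oe-NC array (SD, 18 spots) and 5.91 ± 2.69 on the oe-HOTTIP array (SD, 20 spots), a scaled difference of -1.75 ± 0.72. It was dim, with 11 of 20 spots well above background on the oe-NC array and 1 of 20 on the oe-HOTTIP array. miR-16-5p, which many other cells also express, read 243 ± 29.8 (SD, 19 spots) and 439 ± 66.2 (SD, 20 spots), a difference of 0.20 ± 0.28. Of these 5 miRNAs, miR-486-5p was thus lower on the oe-HOTTIP array by more than its spread, as miR-92a-3p was, and the others lay within their spread of 0. On that array miR-486-5p was near background, whereas miR-92a-3p had 19 of 20 spots well above it. The part of blood cell RNA in the miR-92a-3p value was not tested.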

How the data were processed

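Exosome RNA (200 ng per array) of 2 samples was hybridized to 1-colour Agilent human miRNA arrays, 1 per group. The authors deposited spot intensity values from Agilent Feature Extraction (10.10 per the labels, 11.5.1.1 per the file headers), background-subtracted and not normalized between arrays, and a table of normalized log2 values with a floor of 1e-06, whose scale was found by setting it against the intensities. The table holds no fold changes or p-values.

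Outlier and control spots were left out, spots were averaged per probe and probes per miRNA. SDs of miRNAs were pooled within probes. A miRNA counted as detected by the scanner's flag. Arrays were divided by the 90th percentile of the 261 miRNAs found on both. The methods also name a 90th percentile but do not state such a restriction. The 90th percentile over all miRNAs was one of the alternatives. The fold threshold was 2. The number of arrays limits the precision, and without replicates no test was run. Tools were Python 3.11.15, pandas 2.3.3, numpy 2.4.6, R 4.3.3 and limma 3.58.1 (normexp). The scaling and the fold calls were checked on simulated arrays in which all miRNAs were bright and detected. The handling of outlier spots and of dim or undetected miRNAs was not checked in this way.

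The text names the 10 members, the other arms of their hairpins, seed relatives, arms of the paralog clusters and cell type markers. Members and lists were chosen with earlier results of these data known. In all, 15 alternatives were tried.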

Additional observations from a re-analysis of the deposited data

How the results depend on the processing

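Without scaling, the median log2 difference of the detected members was 0.91, 0 were at least 2-fold lower and 1 was at least 2-fold higher (miR-19a-3p, 1.26), while the median of all 261 miRNAs was 0.67. With normexp background correction and an offset of 50, the gap between miR-92a-3p and the median of the other detected guide strands was -0.97, against -1.85 as reported. With normexp and no offset the gap was -1.65. The offset shrinks differences of dim miRNAs by construction. In the normalized table with its columns as named, miR-92a-3p was reversed at 1.77 and its gap at 1.85, with 0 members at least 2-fold lower and 1 higher. With the columns exchanged they had the signs reported, which the exchange itself sets. Over the other 14 alternatives, the exchanged columns included, miR-92a-3p ranged from -1.77 to -0.87, the member median from -0.18 to 0.91 and the gap from -1.88 to -0.97. The -1.77 is that of the exchanged columns. Of all 261 miRNAs, 55 were lower and 47 higher as reported, 26 and 7 with normexp and the offset of 50, 30 and 101 without scaling, and 48 and 24 with normexp and no offset. Requiring most spots well above background left 155 miRNAs, with 20 lower and 50 higher. That alternative gave no value for miR-18a-5p and miR-19a-3p, and the table none for miR-18a-5p. The change of the strand ratio of the cluster's hairpins between arrays had no value under any setting, since no passenger strand of the cluster was detected. No paired analysis was possible because the groups hold a single array each, and for the same reason no replicate could be left out.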

Other observations

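Of the 852 hairpins with both arms on the array, 7 had both arms detected on both arrays, none of them in the cluster, and they are named here after their values were seen. For these the log2 ratio of the 5p to the 3p arm has a change between the arrays (oe-HOTTIP minus oe-NC). It was -6.60 for miR-4485, -1.97 for miR-22, -1.18 for miR-4433a, -1.11 for miR-31, -0.30 for miR-21, 0.32 for miR-150 and 1.48 for miR-151a. Its size was at least 1 in 5 of the 7. The sign turns round if the titles of the arrays are wrong.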
